A study of Arabidopsis thaliana with 12 samples.

Results

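COR15A, COR15B and COR47 are cold-regulated genes of Arabidopsis thaliana, and their transcript levels were followed over 6 groups of plants. They were chosen by name and locus: COR15A is AT2G42540 (probe set 263497_at), COR15B is AT2G42530 (263495_at) and COR47 is AT1G20440 (259570_at). Each has 1 probe set on the Affymetrix ATH1 array, so the 3 genes stand for 3 of 22746 probe sets that are not controls. All 3 were among the 11561 probe sets that passed the filter on low values, a log2 signal above 4 on at least 2 of the 12 arrays. In RefSeq's gene table of assembly TAIR10.1, COR15B and COR15A are direct neighbours. They are paralogs, and whether RNA of one binds the probes of the other was not tested.

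The study measured RNA from aerial parts, with 2 arrays in each group. The groups are the lines S82-2, S14-150, S58-2 and S15-118, their parent aba3-1, which makes too little abscisic acid (ABA), and wild type (wt). The labels speak of 4 recessive suppressors of aba3-1, found by infrared imaging as plants whose leaves had lost the cold leaf temperature of the parent, and it is assumed here that these are the lines measured, each carrying aba3-1 as well. All plants were untreated and grew on compost at 21 °C with 8 h of light and 16 h of dark, and the labels name no cold treatment. Plant age, accession, harvest time and the number of plants behind a sample are not given in the sources used here, and each line stands for 1 mutant. Whether the 2 arrays of a group come from plants grown or harvested apart is not in the labels, and the p-values therefore cover the spread between 2 samples that could differ for technical reasons alone.

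In cold, the CBF transcription factors (also called DREB1) bind a short element in the promoters of such genes and switch them on, and the set of genes they control is known as the CBF regulon. Drought and ABA act on many of the same promoters through a separate element bound by bZIP factors, and the circadian clock sets how strongly the pathway responds at a given time of day. COR15A and COR15B encode small late embryogenesis abundant proteins of the chloroplast stroma that protect membranes during freezing. COR47 encodes a dehydrin, a very hydrophilic protein of the same broad class that keeps membranes and other proteins intact as cells lose water.

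Median signals were alike on the 12 arrays, from 3.58 to 3.73 on the log2 scale. Arrays with equal replicate numbers deviate together, and so each difference is given within each number and in 2 fits of limma, without and with the number as a block. A difference is termed called where it had an adjusted p under 0.05 in limma, with the Benjamini-Hochberg adjustment over all 11561 probe sets. RCA, the activase of the carbon-fixing enzyme Rubisco and the green leaf marker with a paired probe set in the annotation, lay between 12.46 and 13.36 on all 12 arrays. S58-2 stands apart in several ways. On its replicate 1 array the control probe set of 25S ribosomal RNA read 3.77, against 7.19 to 9.78 on the other arrays, and RCA was lowest (12.46). Its replicate 2 sample had the least extracted RNA, 5.1 µg, against 6.8 to 15 µg elsewhere. Its deviations also correlated less with those of the other groups, with r of 0.708 to 0.724 against 0.798 to 0.872 for pairs without S58-2. The block thus fits S58-2 least well. The part of these features in the S58-2 values was not tested.

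COR15A was high in S82-2 and wt and lower in the other 4 groups, in both replicate numbers. In replicate number 2 the log2 signal of COR15A was 9.35 in S82-2, 7.43 in S14-150, 8.07 in S58-2, 6.40 in S15-118, 7.17 in aba3-1 and 9.27 in wt. In replicate number 1 it was 11.07 in S82-2, 9.52 in S14-150, 9.67 in S58-2, 8.52 in S15-118, 9.18 in aba3-1 and 11.17 in wt. Within a number, S82-2 and wt stood apart from the rest, and below them came S58-2, S14-150, aba3-1 and last S15-118. The order of the groups was the same in both numbers but for S82-2 and wt, which changed places. Across numbers the groups overlap: the wt array of number 2 lies below the S58-2 and S14-150 arrays of number 1.

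COR15B had the same groups at the top and S15-118 at the bottom. Its log2 signal in replicate number 2 was 8.45 in S82-2, 6.85 in S14-150, 6.92 in S58-2, 6.49 in S15-118, 6.82 in aba3-1 and 8.18 in wt. In replicate number 1 it was 10.05 in S82-2, 9.31 in S14-150, 9.01 in S58-2, 8.71 in S15-118, 8.82 in aba3-1 and 9.65 in wt. S82-2 was the highest group in both numbers, and S14-150, S58-2, aba3-1 and S15-118 lay within 0.60 of each other in number 1 and 0.43 in number 2.

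COR47, the dehydrin gene, also had S82-2 and wt above the other groups in both numbers. Its log2 signal in replicate number 2 was 7.89 in S82-2, 7.54 in S14-150, 7.74 in S58-2, 7.39 in S15-118, 7.25 in aba3-1 and 8.31 in wt. In replicate number 1 it was 9.32 in S82-2, 8.20 in S14-150, 8.05 in S58-2, 7.58 in S15-118, 7.79 in aba3-1 and 8.76 in wt. S82-2 was above wt in number 1 and below it in number 2, and S15-118 and aba3-1 shared the bottom places.

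**Figure D1:**
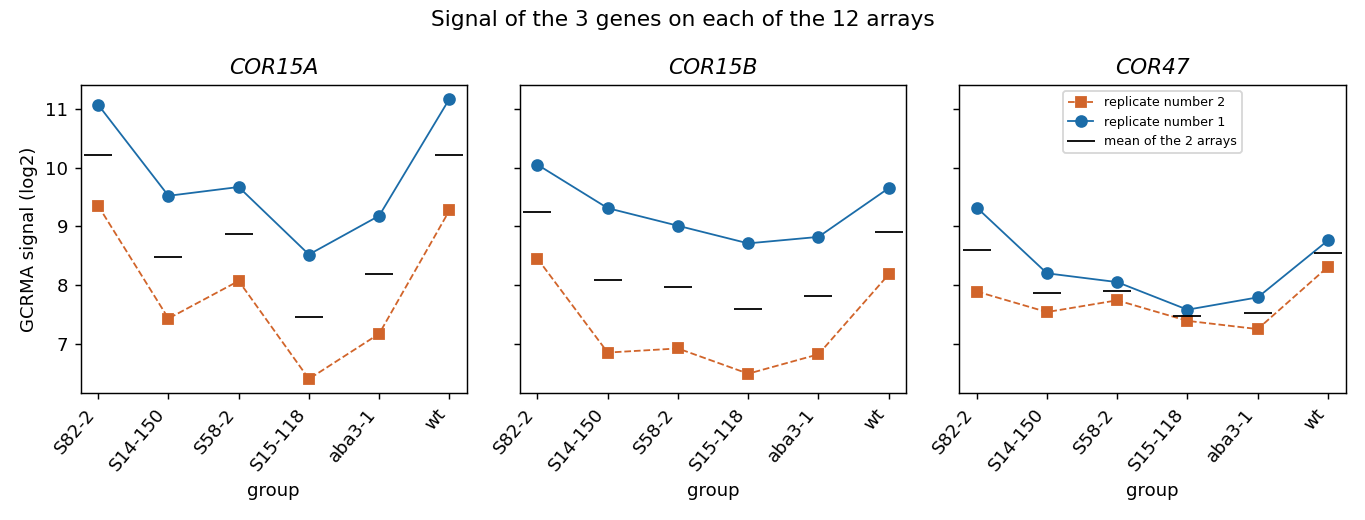
GCRMA signal (log2, vertical axis) of COR15A, COR15B and COR47 in the 6 groups (horizontal axis), with squares for replicate number 2, circles for replicate number 1 and a bar for the mean of the 2 arrays. The lines of a panel run nearly parallel for COR15A, with S82-2 and wt at the top and S15-118 at the bottom (6.40 and 8.52); levels of different genes are not comparable, since each has its own probes.

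The 3 genes were lower in aba3-1 than in wt in both numbers. COR15A had a mean log2 signal of 8.18 ± 1.42 in aba3-1, against 10.22 ± 1.34 in wt (SD, n = 2 each), a difference of -2.04, or 4.13-fold less signal. The difference was -1.99 within number 1 and -2.10 within number 2, while the SDs hold the distance between the numbers. For COR15B the means were 7.82 ± 1.41 in aba3-1 and 8.91 ± 1.04 in wt, which differ by -1.09 (-0.83 and -1.36 within the numbers). The means of COR47, 7.52 ± 0.38 in aba3-1 and 8.54 ± 0.32 in wt, differ by -1.01 (-0.97 and -1.06).

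Without the block none of the 3 differences was called between aba3-1 and wt, where 0.45% of all tested probe sets were. The standard errors were 1.17 for COR15A, 1.22 for COR15B and 0.45 for COR47, with adjusted p of 0.835, 1 and 0.687. With the block, COR15A (SE 0.17, adjusted p = 0.000368) and COR15B (SE 0.23, adjusted p = 0.0239) were called lower, against 4.98% of all tested. COR47 just missed the threshold (SE 0.26, adjusted p = 0.0508). It passed with the stricter filter, signals above 6 in place of 4 (0.0404), after median centring (0.0398) and without the S58-2 arrays (0.0423). It did not pass without the filter (0.195), after quantile normalization (0.0513) or without any 1 of the 4 arrays (0.129 to 0.364). The call of COR15A held without any 1 of the 4 arrays, while that of COR15B was lost without aba3-1 replicate 1, aba3-1 replicate 2 or wt replicate 2 (adjusted p up to 0.21) and without the filter. Among all tested probe sets COR15A had the 5th lowest of the 11561 differences, COR15B the 78th lowest and COR47 the 96th lowest, and the median of all was 0.01.

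S82-2 stood above its parent aba3-1 for each of the 3 genes. COR15A averaged 10.21 ± 1.22 in S82-2 against 8.18 ± 1.42 in aba3-1 (n = 2 each), a log2 difference of 2.04, or 4.1-fold. It was 1.89 within number 1 and 2.18 within number 2. COR15B averaged 9.25 ± 1.13 in S82-2 against 7.82 ± 1.41 in aba3-1, a difference of 1.43 (1.23 and 1.63 within the numbers). COR47 averaged 8.60 ± 1.01 in S82-2 against 7.52 ± 0.38 in aba3-1, a difference of 1.08, and here the numbers differed more, with 1.53 in number 1 and 0.64 in number 2.

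With the block all 3 genes were called higher in S82-2 than in aba3-1, against 5.86% of all tested probe sets. The adjusted p was 0.000225 for COR15A (SE 0.17), 0.0056 for COR15B (SE 0.23) and 0.0346 for COR47 (SE 0.26). Without the block none was called (0.502% of all tested), with adjusted p of 0.853, 1 and 0.613. COR15A kept its blocked call without any 1 of the 4 arrays. COR15B lost it without aba3-1 replicate 1 or S82-2 replicate 2 (adjusted p up to 0.0726), and COR47 without aba3-1 replicate 1, aba3-1 replicate 2 or S82-2 replicate 1 (up to 0.283). Without the filter the blocked fit called COR15A alone.

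For S14-150, S58-2 and S15-118 no difference from aba3-1 was called in either fit. S14-150 lay 0.30 (COR15A), 0.26 (COR15B) and 0.35 (COR47) above aba3-1, with blocked 95% intervals from -0.07 to 0.67, -0.25 to 0.77 and -0.22 to 0.92. S58-2 lay 0.69 above aba3-1 for COR15A, with a blocked interval of 0.32 to 1.07 that leaves out 0 but an adjusted p of 0.155. For COR15B and COR47 the differences of S58-2 were 0.14 and 0.38, with intervals from -0.36 to 0.65 and -0.19 to 0.94. S15-118 was the line below its parent for COR15A, by -0.71 (interval -1.09 to -0.34, blocked adjusted p = 0.386), and its differences were -0.22 for COR15B and -0.03 for COR47.

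The background of these 3 comparisons was low in both fits. The blocked fit called 0.0865% of all tested probe sets in S14-150, 0.104% in S58-2 and 0.0865% in S15-118. Without the block the shares were 0.0173%, 0.00865% and 0.0346%. An adjusted p that misses the threshold in a comparison with so few calls does not show that the levels were the same. With the block, the unadjusted intervals bound the differences of COR15A from aba3-1 to at most 0.67 in S14-150 and 1.07 in S58-2. These lie below 1.66, the lower bound of the blocked interval for S82-2. Without the block the intervals overlapped, at -2.38 to 2.98 in S14-150, -1.98 to 3.37 in S58-2 and -0.64 to 4.71 in S82-2. Leaving out S58-2 replicate 1 gave a blocked call for COR15A in S58-2 (adjusted p = 0.0357), the one call among the leave-one-out fits of these 9 differences.

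**Figure D2:**
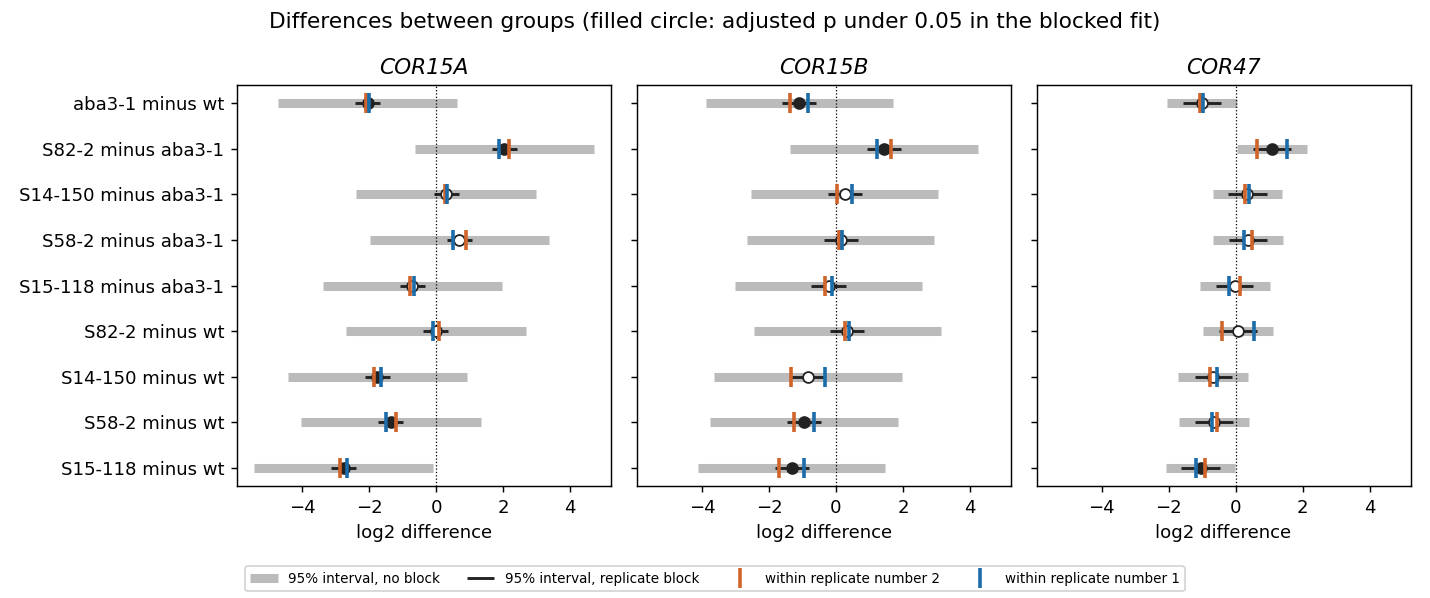
Log2 differences (horizontal axis) of COR15A, COR15B and COR47 in 9 comparisons (rows), with grey bars for the 95% interval without the block, black lines for that with the replicate block and ticks for the difference within each replicate number. The blocked interval of COR15A runs from 1.66 to 2.41 for S82-2 minus aba3-1 and from -0.38 to 0.36 for S82-2 minus wt; filled circles have an adjusted p under 0.05 with the block.

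Against wt, S82-2 showed no called difference, and the other lines lay lower. COR15A in S82-2 differed from wt by -0.01 (blocked 95% interval -0.38 to 0.36), COR15B by 0.34 (-0.17 to 0.84) and COR47 by 0.07 (-0.50 to 0.64). The blocked fit called 0.467% of all tested probe sets in this comparison and the fit without the block 0.00865%. COR47 in S82-2 was 0.56 above wt within number 1 and 0.42 below it within number 2, so that its mean difference near 0 hides numbers of opposite sign. The difference of S82-2 from wt shares the S82-2 arrays with the difference from aba3-1 given above.

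S15-118 had the lowest COR15A signal, 7.46 ± 1.50 against 10.22 ± 1.34 in wt (n = 2 each), a log2 difference of -2.76, or 6.77-fold. It was the 2nd lowest of the 11561 differences between S15-118 and wt, whose median was -0.04. COR15B differed by -1.31 and COR47 by -1.05 in S15-118. With the block all 3 genes were called lower (adjusted p = 4.55e-05, 0.00551 and 0.0238), in a comparison where 14.3% of all tested probe sets were called. COR15A was called without any 1 of the 4 arrays; COR15B lost its call without wt replicate 2 or S15-118 replicate 2, and COR47 without wt replicate 1, S15-118 replicate 1 or wt replicate 2. Without the filter COR15A and COR15B stayed called and COR47 did not.

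S58-2 and S14-150 were also below wt. In S58-2, COR15A differed from wt by -1.35 (blocked adjusted p = 0.000612), COR15B by -0.95 (0.0153) and COR47 by -0.64 (0.0982), against 22.7% of all tested probe sets called. COR15A was called without any 1 of the 4 arrays, and COR15B not without wt replicate 2, without S58-2 replicate 2 or without the filter. In S14-150, COR15A differed by -1.75 (blocked adjusted p = 0.00231), COR15B by -0.84 (0.106) and COR47 by -0.67 (0.23), against 1.39% called. COR15A was here the 6th lowest of all tested differences and was called without any 1 of the 4 arrays and without the filter. Without the block no gene was called in S15-118, S58-2 or S14-150 against wt (lowest adjusted p = 0.368), where 1.38%, 3.23% and 0.0605% of all tested probe sets were.

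Set against each other, the lines differed in all 3 genes where S82-2 and S15-118 were compared. COR15A was 2.75 higher in S82-2 than in S15-118 (6.73-fold, blocked adjusted p = 3.92e-05), COR15B 1.65 higher (0.0016) and COR47 1.12 higher (0.0205), with 10.3% of all tested probe sets called. S82-2 was above S14-150 by 1.74 for COR15A (0.00226) and 1.17 for COR15B (0.0374), with 1.61% called. It was above S58-2 by 1.34 for COR15A (0.000636) and 1.28 for COR15B (0.00463), with 16.2% called. The calls of COR15A held without any 1 of the 4 arrays in each of these 3 pairs of lines, and so did that of COR15B between S82-2 and S15-118. COR15B lost its call against S14-150 without any 1 of the 4 arrays (adjusted p up to 0.311) or without the filter, and against S58-2 without S82-2 replicate 2 (0.057). COR47 lost its call between S82-2 and S15-118 without S15-118 replicate 1, without S82-2 replicate 1 (up to 0.205) or without the filter.

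Among the lower 3 lines only COR15A had blocked calls. It was 1.41 higher in S58-2 than in S15-118 (blocked adjusted p = 0.0115, 0.156% of all tested called) and 1.01 higher in S14-150 than in S15-118 (0.028, 0.657% called). The first was lost without either S15-118 array and the second without any 1 of the 4 arrays, and both without the filter. Between S14-150 and S58-2 none of the 3 genes was called (COR15A -0.40, blocked adjusted p = 0.219), against 5.34% of all tested. Without the block no gene was called in any of the 6 pairs of lines. The shares of all tested were then 0.0259% between S82-2 and S14-150, 2.75% between S82-2 and S58-2, 1.38% between S82-2 and S15-118, 0.13% between S14-150 and S58-2, 0.0519% between S14-150 and S15-118 and 0.0173% between S58-2 and S15-118.

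Over the 15 pairs of the 6 groups, the blocked fit thus called 10 differences of COR15A, 7 of COR15B and 3 of COR47. Its share of all tested probe sets called ran from 0.0865% to 22.7% over these pairs. The pairs share arrays, so these calls are not independent of each other. No pair was called without the block, where 5 of the 45 differences had an unadjusted p under 0.05 (limma). Without the filter the blocked calls numbered 8, 3 and 0. In the order of mean levels, COR15A ran from wt (10.22) and S82-2 (10.21) over S58-2 (8.87), S14-150 (8.48) and aba3-1 (8.18) to S15-118 (7.46). Of its neighbours, S82-2 and S58-2 had a called difference with the block. That test uses a spread estimated over all 6 groups after the block, not the spread within these 2. The pairs of wt with S82-2, S58-2 with S14-150, S14-150 with aba3-1 and aba3-1 with S15-118 did not pass the test.

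For COR15B the order of means was S82-2 (9.25), wt (8.91), S14-150 (8.08), S58-2 (7.96), aba3-1 (7.82) and S15-118 (7.60). None of its neighbouring pairs passed the test. The smallest step from the upper 2 groups to the rest, wt over S14-150, had a blocked adjusted p of 0.106. For COR47 the order was S82-2 (8.60), wt (8.54), S58-2 (7.90), S14-150 (7.87), aba3-1 (7.52) and S15-118 (7.48), again with no neighbouring pair past the test.

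The 6 groups were also compared in a single F test for each gene. COR15A had F = 88.2 (blocked adjusted p = 3.58e-05), COR15B F = 16.5 (0.00401) and COR47 F = 7.19 (0.0355), and all 3 were called with the block, against 14.1% of all tested. Without the block none was (F = 1.84, 0.582 and 2.27, adjusted p = 0.898, 1 and 0.788), against 1.3% of all tested. The blocked call of COR47 was lost without either array of wt, aba3-1 or S14-150 and without S15-118 replicate 1 (adjusted p up to 0.105). Without the filter COR15A alone was called.

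The replicate numbers differed by more than any groups did for COR15B, and for COR15A by about as much as aba3-1 and wt. COR15A averaged 7.95 over the 6 arrays of number 2 and 9.86 over those of number 1, a log2 difference of -1.91 (SE 0.10, adjusted p = 1.66e-07), or 3.75-fold. In the single groups it lay between -2.12 and -1.60. COR15B averaged 7.29 in number 2 and 9.26 in number 1, a difference of -1.97 (SE 0.13, adjusted p = 1.19e-06), between -2.46 and -1.47 in the groups. COR47 averaged 7.69 in number 2 and 8.28 in number 1, a difference of -0.60 (SE 0.15, adjusted p = 0.00731), which was -1.43 in S82-2 and between -0.66 and -0.19 in the other groups.

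All 3 genes were lower in number 2 in 6 of 6 groups. The fit called 48% of all tested probe sets between the numbers, 2515 higher and 3034 lower in number 2, so a call alone does not set these genes apart. By size, COR15B had the 92nd lowest and COR15A the 107th lowest of the 11561 differences and COR47 the 1375th lowest. An exact sign-flip permutation test over the 6 groups gave p = 0.0312 for each gene (two-sided, adjusted 0.0312 over the 3), the smallest value that 6 groups allow. The test takes the 6 groups as independent, although their deviations correlate. Neither the sign-flip p-values here nor the p of limma between the numbers cover how further replicate numbers would vary. The difference between the numbers was larger for COR15A than for COR47 by 1.31 on the log2 scale and for COR15B than for COR47 by 1.38, in 6 of 6 groups each (exact sign-flip p = 0.0312, adjusted 0.0469 over 3 comparisons). Between COR15A and COR15B the same exact sign-flip test gave p = 0.688 for a difference of 0.07, larger for COR15B in 3 of 6 groups.

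**Figure D3:**
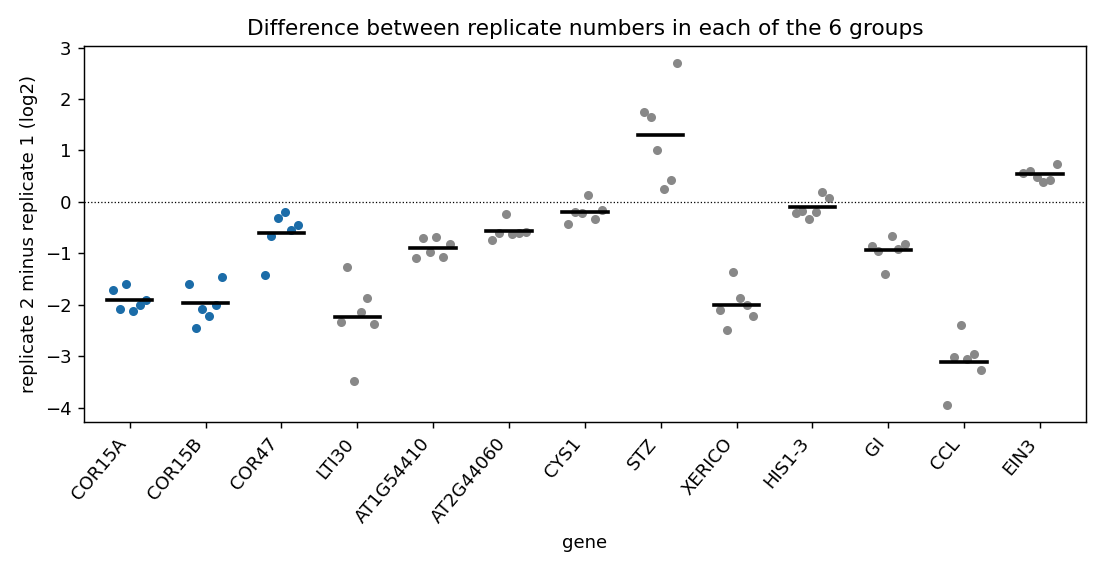
Log2 difference of replicate number 2 minus 1 (vertical axis) for COR15A, COR15B, COR47 (blue) and 10 tested genes of the cold, LEA, ABA, clock and regulator lists (grey), 1 point for each of the 6 groups and a bar for their mean. COR15A lies between -2.12 and -1.6 over the groups and COR15B between -2.46 and -1.47. CCL is lower still at a mean of -3.11, while STZ and EIN3 (0.54) lie above 0 in the mean.

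Other cold-induced genes were looked up from a list of 30 loci, of which 6 had a tested probe set, the 3 genes themselves among them. LTI30, a dehydrin of the cold and drought response, was at 3.66 to 4.88 in number 2 and 5.75 to 7.22 in number 1. Its difference between the numbers was -2.25 (SE 0.22, adjusted p = 2.24e-05), a size made uncertain by values near the filter level of 4 in number 2. LTI30 was not called in any of the 9 comparisons with aba3-1 or wt. STZ, a zinc-finger repressor of stress responses, read 4.51 in S82-2, 6.25 in S58-2, 6.23 in S15-118, 5.75 in aba3-1 and 5.37 in wt in number 2. In number 1 it read 2.76 in S82-2, 5.24 in S58-2, 5.98 in S15-118, 5.32 in aba3-1 and 2.67 in wt, so that S82-2 and wt were there below the level of 4 used for the filter. With the block it was called lower in S82-2 than in aba3-1 (adjusted p = 0.0445) and higher in S58-2 (0.0275) and S15-118 (0.0181) than in wt, and since each call sets these low values against higher ones, no size is given. CYS1, a cystatin that inhibits cysteine proteases, was called in none of the 9. For this list the median difference of S82-2 from aba3-1 was 1.11, beside a median of 0.01 over all tested probe sets. That median includes COR15A, COR15B and COR47 and so says little about other cold-induced genes. Of the others, LTI30 differed by 1.14 and CYS1 by 0.34, neither called, while STZ was lower. The blocked fit called 3 of its 6 genes higher, which are COR15A, COR15B and COR47 themselves, and 1 lower, STZ, in a comparison with 5.86% of all tested called. Between aba3-1 and wt the median was -0.70, with 2 of 6 called lower (COR15A and COR15B) and 0 higher, against 4.98% of all tested. It again includes the 3 genes. LTI30 differed by -0.38 and CYS1 by 0.05, and STZ was higher in aba3-1 without a call.

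Dehydrins and other late embryogenesis abundant proteins made a second list of 21 loci, again with 6 tested. Beside the 3 genes and LTI30, it held AT1G54410, a small dehydrin, and AT2G44060, of the LEA type. All 6, of which 3 are COR15A, COR15B and COR47, were called lower in number 2, a comparison in which 3034 of the 11561 tested were called lower. AT1G54410 differed by -0.89 (adjusted p = 2.94e-05) and AT2G44060 by -0.57 (0.000569). The median of the list, which includes the 3 genes, was -1.40 beside -0.04 over all tested. AT1G54410, AT2G44060 and LTI30 had no blocked call in any of the 9 comparisons with aba3-1 or wt. The pairs of lines were not examined for these 3 genes.

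Few genes of the control layer had a probe set paired with them in the annotation used. It leaves 8730 of the 22746 probe sets without a gene, so a locus not found may still be on the array. Of 24 loci of CBF pathway regulators 2 were tested, EIN3, a transcription factor of ethylene signalling that lowers CBF expression, and SIZ1, a SUMO ligase that stabilises the CBF activator ICE1. EIN3 was 0.54 higher in number 2 (adjusted p = 0.00052) and was not called in the 9 comparisons with aba3-1 or wt. SIZ1 has 2 probe sets: 1 was called lower in S82-2 than in aba3-1 with the block (-0.67, adjusted p = 0.0273) and the other was not (-0.46). The CBF genes themselves are not analysed here, since no probe set is paired with them in the tables at hand.

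Of 30 ABA-responsive loci 2 were tested. XERICO, a RING protein gene that raises ABA levels when active, was lower in number 2 (log2 difference -2.01, adjusted p = 1.08e-06) and was not called in the 9 comparisons with aba3-1 or wt. It lay at 3.74 to 5.04 in number 2, near the filter level of 4, so the size of its difference is uncertain. HIS1-3, a linker histone gene induced by drought and ABA, read 4.05 and 4.38 in S58-2 and 2.77 to 3.54 on the other 10 arrays. It passed the filter through the S58-2 arrays alone, so its calls are not counted here. Of 20 clock loci 2 were tested, and both were called lower in number 2, where 48% of all tested probe sets were called. GI, a light and clock protein gene that peaks late in the day, differed by -0.94 (adjusted p = 5.1e-05). CCL, a gene under circadian control whose transcript decays quickly, differed by -3.11 (2.03e-07), with 6.01 to 8.05 in number 2 and 9.76 to 10.45 in number 1, and was called higher in S58-2 than in wt with the block (1.12, adjusted p = 0.0188). These 2 genes and XERICO are too few to set their lists apart from the other tested probe sets.

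Markers of other organs with a paired probe set in the annotation were few. Of 12 root loci 3 had one. EXPA7 and EXPA18, expansins of root hairs, lay between 2.11 and 2.24 on all arrays, below the filter. PYK10, a beta-glucosidase abundant in roots, lay between 4.63 and 7.20 and was called higher in S15-118 than in wt with the block (2.08, adjusted p = 0.00625). It was also above wt in S82-2, where COR15A was high, by 1.56 (blocked adjusted p = 0.128), and in S14-150 by 1.33 (0.111). The guard cell gene AT1G22690 reached 7.43 and was called lower in S58-2 than in wt (-0.64, blocked adjusted p = 0.0355), while FMA, a regulator of guard cell formation, was at 2.50 to 2.88. No flower or seed marker of the list was paired with a probe set in the annotation used. Fewer cells of a type and less RNA per cell cannot be told apart in such samples.

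Across the arrays the 3 genes ran together. Over the 12 arrays Pearson's r was 0.939 between COR15A and COR15B, 0.902 between COR15A and COR47 and 0.81 between COR15B and COR47. With the mean of each replicate number removed from its 6 arrays, r was 0.929, 0.874 and 0.809. These values describe 12 arrays that share 6 groups and 2 numbers, and no p is attached to them.

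The most similar patterns among 6070 other tested probe sets with 1 gene were sought for each of the 3. Over the 12 arrays as they stand, AT5G11810 (r = 0.964) and AT5G42860 (0.957) ranked first for COR15A, AT1G72160 (0.977) and AT3G26580 (0.974) for COR15B, and AT2G29300 (0.944) and AT3G14560 (0.923) for COR47. In replicate number 1, AT2G29300 exceeded the filter level of 4 in S82-2 (4.39) and wt (4.12), and on no other array. It thus passed the filter through the arrays where COR47 was highest. AT5G42860 exceeded 4 only in S82-2 (4.28), wt (4.34) and aba3-1 (4.01) of number 1. The likeness of these 2 genes therefore rests on low values. With the means of the numbers removed, the first 5 for COR15A were the tetraspanin gene TET3 (0.955), AT3G09540 (0.949), AT4G12000 (0.943), AT3G07310 (0.943) and AT3G43270 (0.94). For COR15B they were AT1G49500 (0.967), AT3G01920 (0.961), the beta-tubulin gene TUB1 (0.958), AT4G12000 (0.956) and AT2G21560 (0.949). For COR47 they were AT4G09890 (0.966), AT1G51090 (0.959), AT2G43550 (0.943), AT2G15960 (0.941) and AT5G50100 (0.924). The lists of COR15A and COR15B share AT4G12000, while none of the first 5 of COR47 stands in either.

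A similar order over the groups could go with another shift between the numbers. AT4G12000 was at 6.87 in S82-2, 6.09 in aba3-1 and 6.85 in wt in number 2, and at 4.99 in S82-2, 4.19 in aba3-1 and 4.92 in wt in number 1. Its order of these groups follows from how it was chosen. Between the numbers it went the other way from COR15A, 1.82 higher in number 2 (adjusted p = 2.56e-07).

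**Figure D4:**
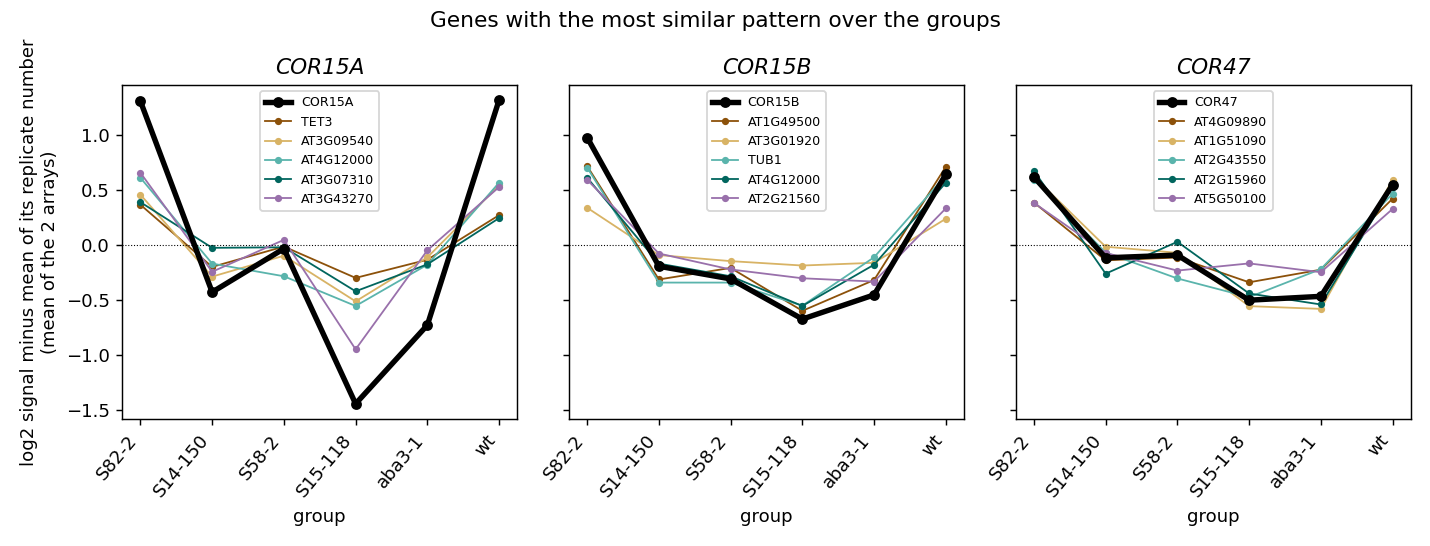
Log2 signal minus the mean of its replicate number, averaged over the 2 arrays of a group (vertical axis), in the 6 groups (horizontal axis), for COR15A, COR15B and COR47 (black) and the 5 genes with the highest Pearson r to each (colours). The shared pattern of high S82-2 and wt follows from how the 5 genes were chosen. COR15A spans a wider range than the 5 genes beside it.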

How the data were processed

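RNA of 12 samples was hybridised to Affymetrix ATH1 arrays, with 20 µg of amplified RNA labelled per array, per the labels. The deposited values are GCRMA signals on a log2 scale, made by the authors with GCRMA per the submitters' processing notes. The log base is not stated and was taken as 2, and a version is not given in the sources used here. Of 22810 probe sets 64 controls were left out, and 11561 had a log2 value above 4 on at least 2 arrays. Genes came from the platform annotation: 13513 probe sets have 1 gene, 503 several and 8730 none. All 12 arrays entered 1 model of group means, fitted with limma 3.58.1 in R 4.3.3 (6 residual degrees of freedom, or 5 with the replicate block). The fit was run on simulated data first, in which a probe set had the same shift between the numbers in every group. That run therefore does not test this assumption of the block. P-values were adjusted over all 11561 by the Benjamini-Hochberg method. Replicate numbers were treated as pairing the arrays, since deviations from group means correlated between equal numbers in all 15 pairs of groups (r from 0.708 to 0.872 across probe sets, lowest in the pairs with S58-2). The 3 genes and the lists were chosen with earlier results of these data known, and the genes named were the 3, list members that were called, and the 5 most alike by Pearson r; CYS1, RCA, EXPA7, EXPA18 and FMA, which had no call, were named after their values were seen. AT4G28190 stood in the flower list under a wrong name (it is ULT1) and was left out. Precision is limited by the number of arrays. The alternatives were the block, 2 other filters, quantile normalization, median centring, an intensity trend and leaving out arrays; the combinations of filter or normalization with the block were chosen after seeing the data.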

Additional observations from a re-analysis of the deposited data

Results flagged for a closer look

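The change from aba3-1 differed between lines in 9 cases by the test of that difference itself, limma with the replicate block. Without the block there was no such case. In the pairs of lines concerned, the blocked fit called 0.156% to 16.2% of all tested probe sets. Some of the 9 calls, which are those between lines given above, were lost without 1 array or without the filter. For COR15A, the change in S82-2 exceeded that in S14-150 by 1.74, that in S58-2 by 1.34 and that in S15-118 by 2.75 on the log2 scale. The change of COR15A in S14-150 exceeded that in S15-118 by 1.01, and that in S58-2 exceeded it by 1.41. For COR15B, the change in S82-2 exceeded that in S14-150 by 1.17, that in S58-2 by 1.28 and that in S15-118 by 1.65. For COR47, S82-2 exceeded S15-118 by 1.12. Each of these compares the lines with the same aba3-1 arrays, so the value is the difference between the lines.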

How the results depend on the processing

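Without the replicate block, no other filter, normalization, intensity trend or left-out array gave COR15A, COR15B or COR47 a call between groups. The block decided the calls: of 45 differences it gave 20, with 11 without the filter, 21 with the stricter filter, 20 after quantile normalization, 21 after median centring and 16 of 30 without the S58-2 arrays. In the main blocked fit the share of all tested probe sets called ran from 0.0865% to 22.7% over the pairs of groups. The difference between the replicate numbers was called under every alternative run. With 2 arrays in a group there is no check for outlying arrays within groups.

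The blocked calls rest on these log2 differences, which the filters and the S58-2 arrays do not move. For COR15A, S82-2 minus aba3-1 was 2.04 (2.04 after quantile normalization and 2.1 after median centring), S14-150 minus wt -1.75 (-1.76 and -1.76) and S58-2 minus wt -1.35 (-1.35 and -1.42). S15-118 minus wt was -2.76 (-2.76 and -2.80) and aba3-1 minus wt -2.04 (-2.05 and -2.12). For COR15B, S82-2 minus aba3-1 was 1.43 (1.42 and 1.49), S58-2 minus wt -0.95 (-0.91 and -1.01), S15-118 minus wt -1.31 (-1.29 and -1.35) and aba3-1 minus wt -1.09 (-1.07 and -1.18). For COR47, S82-2 minus aba3-1 was 1.08 (1.08 and 1.15) and S15-118 minus wt -1.05 (-1.03 and -1.09), while aba3-1 minus wt, -1.01, was called after median centring (-1.09), with the stricter filter and without the S58-2 arrays.

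The blocked F of COR15A was 88.2, with 134 without the filter, 97.9 with the stricter filter, 92.2 after quantile normalization, 90 after median centring and 161 without the S58-2 arrays. That of COR15B was 16.5, with 17.2 under the stricter filter, 15.7 after quantile normalization, 17.6 after median centring and 19.4 without the S58-2 arrays. That of COR47 was 7.19, with 7.36 under the stricter filter, 7.17, 7.36 and 9.24. Without the filter the F fell to 14.6 for COR15B and 5.78 for COR47, and both lost their call. Median centring turned the sign of 2 small differences of COR47, with and without the block: S14-150 minus S58-2 became 0.02 and S15-118 minus aba3-1 0.00. Both were -0.03 before, and median centring moves each difference by that between the array medians.

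Leaving out 1 array without the block sets arrays of unequal numbers against each other, which widens the ranges, given here over both fits. For COR15A they were 1.03 to 3.04 for S82-2 minus aba3-1, -0.96 to 0.94 for S82-2 minus wt, -1.44 to 0.65 for S14-150 minus S58-2, -0.04 to 2.08 for S14-150 minus S15-118, -0.74 to 1.34 for S14-150 minus aba3-1 and -2.79 to -0.70 for S14-150 minus wt. Further, they were -0.31 to 1.70 for S58-2 minus aba3-1, -2.30 to -0.40 for S58-2 minus wt, -1.77 to 0.35 for S15-118 minus aba3-1, -3.82 to -1.70 for S15-118 minus wt and -3.05 to -1.04 for aba3-1 minus wt. Among pairs of lines they were 0.69 to 2.78 for S82-2 minus S14-150, 0.48 to 2.20 for S82-2 minus S58-2, 1.69 to 3.81 for S82-2 minus S15-118 and 0.35 to 2.47 for S58-2 minus S15-118. The F of COR15A ranged from 1.28 to 129.

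For COR15B they were -0.06 to 2.40 for S82-2 minus S14-150, 0.43 to 2.43 for S82-2 minus aba3-1, -0.47 to 1.14 for S82-2 minus wt, -1.11 to 1.34 for S14-150 minus S58-2, -0.75 to 1.71 for S14-150 minus S15-118 and -0.97 to 1.49 for S14-150 minus aba3-1. They were -2.06 to 0.40 for S14-150 minus wt, -0.75 to 1.48 for S58-2 minus S15-118, -0.90 to 1.19 for S58-2 minus aba3-1 and -2.0 to 0.09 for S58-2 minus wt. Those of S15-118 were -1.33 to 0.89 minus aba3-1 and -2.42 to -0.20 minus wt, and aba3-1 minus wt ranged from -2.10 to -0.10. Among pairs of lines, S82-2 minus S58-2 ranged from 0.24 to 2.33 and S82-2 minus S15-118 from 0.54 to 2.76. The F of COR15B ranged from 0.284 to 20.8.

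For COR47 they were -0.00 to 1.43 for S82-2 minus S58-2, 0.37 to 1.80 for S82-2 minus aba3-1, -0.64 to 0.79 for S82-2 minus wt and -0.35 to 0.30 for S14-150 minus S58-2. S82-2 minus S15-118 ranged from 0.41 to 1.83. S15-118 ranged from -0.31 to 0.24 minus aba3-1 and from -1.29 to -0.81 minus wt, and the F from 1.63 to 19.7.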
